A study of Mus musculus with 34 samples.

Results

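The genes described here are the catalytic ATPases and partner subunits of the chromatin remodelling complexes. They were taken from the deposited RNA-seq table by symbol alone, as the rows named Smarca to Smarce, Chd, Arid, Ino80 or Baz with a number or letter, plus Bptf, Hells and Atrx, which gave 46 of 23366 rows. By known function they comprise 19 ATPases, 7 core and accessory subunits and 3 ARID subunits of SWI/SNF (BAF) complexes, 5 partners of ISWI ATPases, 4 further INO80 subunits, 7 ARID proteins that are not subunits of remodelling complexes, and 1 pseudogene, Smarca5-ps. RNA-seq was made from J1 mESCs. J1 is a line of mouse embryonic stem cells, which need leukemia inhibitory factor (LIF) to self-renew in serum. Both cultures were in serum without LIF on gelatin-coated plates, and they differed in the addition of purified Royalactin, a honeybee royal jelly protein, at 0.5 mg/ml. There were 2 libraries from serum/-LIF and 2 from serum/-LIF + Royalactin, all labelled passage 40, although the study's text names a lower passage. Every value comes from this line, and serum/+LIF libraries and ATAC-seq were not analysed here. The labels do not tie each library to a culture of its own, so p-values measure only the spread between these libraries, which may be technical.

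Remodelling ATPases use ATP to slide, evict or exchange nucleosomes, and most work inside complexes whose partner subunits set where they act. In mouse embryonic stem cells the BAF complex is built around SMARCA4 (BRG1) and SMARCC1 and has little SMARCA2 (BRM), the alternative ATPase of many differentiated cells. CHD4 is the main ATPase of the NuRD deacetylase complex, CHD1 is linked to open chromatin at active genes, SMARCA5 (SNF2H) spaces nucleosomes, and INO80 exchanges or moves nucleosomes at promoters and replication forks.

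Sequence shared between genes limits what some of these rows can measure, and the clearest case is the ATPase Smarca5. Its pseudogene, Smarca5-ps, lies at chr4:145054107-145057323 (mm9) as a single exon of 3217 bases annotated as a non-coding processed transcript. All 52 windows of 60 bases along the Smarca5 coding sequence matched the pseudogene, with a median of 1 difference, and 15 windows were identical. The pair below shows coding bases 301 to 360 of Smarca5, at chr8:83257645-83257704 on the minus strand, and their match at chr4:145054475-145054534 on the plus strand (both mm9). The capital letter marks the base that differs, and the window is printed because reads from it differ at a single letter while the alignment allowed 2 mismatches.
Smarca5: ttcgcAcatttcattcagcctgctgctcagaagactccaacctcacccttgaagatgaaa
Smarca5-ps: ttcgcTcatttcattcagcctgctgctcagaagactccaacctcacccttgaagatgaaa

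Of the 75-base tiles along the exons, 87.3% of those of Smarca5-ps and 31.3% of those of Smarca5 matched a further genomic site at 2 or fewer mismatches. Those shares were 16.0% for Baz1a, 11.3% for Smarce1, 8.7% for Smarcc1 and at most 4.9% for every other member. Reads of these genes could have been split or dropped in counting, so the values of Smarca5-ps and, in part, of Smarca5 are uncertain. The exons of Smarcd3 overlapped a gene on the opposite strand (Chpf2) over 56.4% of their length and those of Ino80e (Doc2a) over 23.7%. Because the strand setting of the counting is not given in the sources used here, reads of these pairs cannot be told apart.

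The promoters of these genes were mostly rich in CpG. In RefSeq (GRCm38.p6), 34 of the 46 genes had a promoter entry, and their 250 bases upstream of the start held a median of 20 CpG dinucleotides, against 6 over all 27025 genes with an entry. A GC box (GGGCGG, either strand) occurred in 27 of the 34 genes (79.4%) and in 35.4% of all genes. The 27025 genes were not limited to those expressed in these cultures, and no comparison with expressed genes was made. The shares were close to those of all genes for the CCAAT box (CCAAT, 38.2% and 37.5%), the E-box (CACGTG, 5.88% and 6.86%), the ESRRB motif (AAGGTCA, 2.94% and 4.7%) and the STAT motif (TTCNNNGAA, 8.82% and 8.13%), all searched on both strands. The promoters of the alternative BAF ATPases are printed because these genes stood far apart in level as measured here, with GC boxes in capitals. The Smarca4 window is chr9:21615919-21616168 (plus strand, 25 CpG) and the Smarca2 window is chr19:26604910-26605159 (plus strand, 28 CpG), both in GRCm38.p6. Both windows were rich in CpG and carried GC boxes.
Smarca4: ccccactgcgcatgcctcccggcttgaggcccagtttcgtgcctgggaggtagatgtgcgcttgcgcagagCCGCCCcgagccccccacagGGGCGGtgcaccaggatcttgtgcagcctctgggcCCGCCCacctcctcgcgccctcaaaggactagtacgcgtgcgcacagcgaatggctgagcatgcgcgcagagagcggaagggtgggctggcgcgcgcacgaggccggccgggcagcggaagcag
Smarca2: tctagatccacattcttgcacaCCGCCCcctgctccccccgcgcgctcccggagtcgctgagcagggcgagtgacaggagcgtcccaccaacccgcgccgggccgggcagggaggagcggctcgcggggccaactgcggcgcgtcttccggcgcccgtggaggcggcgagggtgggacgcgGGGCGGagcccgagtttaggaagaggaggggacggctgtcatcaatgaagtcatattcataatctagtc

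The deposited values are reads per gene divided by a size factor for each library (normalized counts). Reads counted on genes ranged from 14737796 to 17597818 per library and, without the ribosomal RNA precursor Rn45s, from 7878527 to 15999458. Rn45s took 46.6% and 21.6% of the reads in serum/-LIF replicates 1 and 2, and 38.4% and 9.08% with Royalactin, so the replicates numbered 1 were the shallower libraries of both cultures. All 12 markers of undifferentiated embryonic stem cells had reads in every library. Of these, 5 (Sox2, Zfp42, Esrrb, Klf4 and Tfcp2l1) rose with Royalactin at an adjusted limma p under 0.05, as against 0.493% of all genes called in either direction. Both Royalactin libraries lay above both serum/-LIF libraries for 7 of the 12 (19.7% of all genes). They lay below for 2, Lin28a and Tdgf1 (18.9% of all genes), and Pou5f1 and Utf1 were among those that overlapped. Their summed normalized counts were 34717 and 38174 in serum/-LIF and 44215 and 50268 with Royalactin. Summed markers of fibroblasts and mesenchyme (12 genes, 5 tested, none called with adjustment) ranged from 424 to 439 in serum/-LIF and from 145 to 244 with Royalactin, with Pdgfrb, Postn and S100a4 at 0 in every library. Of the 5 tested, 3 (Col5a1, Dcn and Twist1) were lower with Royalactin at an unadjusted limma p under 0.05 (9.34% of all genes), and 1 of the 5 had a higher mean. Dcn had 28 and 30 reads in serum/-LIF and 0 and 0 with Royalactin. Neural markers (8 genes, 6 tested) summed to 1743 to 2283 and 1267 to 1406, with Neurog2 at 0 throughout. Nes was the 1 neural marker called, and it fell, whereas 4 of the 6 had a higher mean with Royalactin (49.4% of all genes). The sum without Nes was 644 to 793 in serum/-LIF and 933 to 1080 with Royalactin. Extraembryonic endoderm markers (8 genes, 4 tested, none called) summed to 346 to 388 in serum/-LIF and 220 to 306 with Royalactin. Dab2 made up most of each sum, with normalized counts of 284 and 245, and 188 and 126. Of the 4 tested, 2 had a higher mean with Royalactin and 2 a lower mean, with a median log2 fold change of 0.26. Streak and mesoderm markers (8 genes, 4 tested, none called) summed to 124 to 198 and 136 to 193, with Tbx6 at 0. Trophoblast markers (6 genes, 2 tested, none called) summed to 32.1 to 36.2 and 54.3 to 60.6, with Elf5 and Prl3d1 at 0. Of 14 proliferation genes none was called (0.493% of all genes) and 11 had a higher mean with Royalactin (49.4% of all genes). The sums were 65951 to 71051 and 72970 to 75738. The part of these differences in cell state in the values below was not tested, and in bulk RNA fewer cells of a type and less RNA per cell cannot be told apart.

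Across the remodelling genes, levels in the 2 cultures lay close together. Of the 46 genes, 45 passed the filter of a mean normalized count of at least 10. In a limma fit on log2(normalized count + 1) over all 12993 genes that passed, no remodelling gene had an adjusted p under 0.05 (0 of 45), where 0.493% of all genes did. The adjusted p-values ran from 0.523 to 0.995. At an unadjusted p under 0.05 there was 1 gene (2.22%), Smarce1, against 9.34% of all genes, and no gene passed the study's limits of p under 0.05 and a 2-fold change, which 7.13% of all genes passed. edgeR's quasi-likelihood test on the recovered reads called none with adjustment (0.377% of all genes) and none without (8.93%). A correction for GC content and exon length gave 0 of 45 (1.95% of all genes), and so did a replicate block in the fit (3.01%), whereas both together gave 3, Ino80d, Smarcad1 and Smarce1 (6.15%). The 95% interval of the fold change lay within 2-fold either way for 20 genes and within 4-fold for 41, so for most of these genes a difference of 4-fold was outside the interval, while a 2-fold difference often was not.

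The differences between cultures were of the size of those between replicates, as they were over all genes. The median absolute log2 difference between the culture means was 0.27, against 0.42 within serum/-LIF and 0.35 within the Royalactin culture. These measures are unlike, since each culture mean averages 2 libraries while a replicate difference compares single libraries. With no difference between cultures, the first would therefore be the smaller. Over all genes these medians were 0.40, 0.57 and 0.39. For 24 of 45 genes the difference between cultures was smaller than both replicate differences (53.3%, against 37.2% of all genes). In the estimate 3 genes, Smarcd3, Chd5 and Smarca2, differed at least 2-fold (6.67%, against 19.6% of all genes). These 3 had low mean normalized counts of 10.4, 72.0 and 59.3, against a median of 891 over the tested members. The shares of all genes given here were not matched for level. At least 1.5-fold, 10 genes differed, and the share of all genes at that limit was not computed. Both Royalactin libraries lay above both serum/-LIF libraries for 9 genes (20.0%, against 19.7% of all genes) and below them for 6 (13.3%, against 18.9%), and the groups did not overlap for 15 in all (33.3%, against 38.6%). With scaling to the total without Rn45s these numbers were 10 above and 4 below, and with the GC and length correction 14 above and 6 below. Shares of all genes were not computed for those settings. On the deposited values, the shares without overlap lay near or under those of all genes.

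The direction leaned towards Royalactin. The mean on the log2 scale was higher with Royalactin for 35 of 45 genes (77.8%, against 49.4% of all genes), and the median log2 fold change was 0.15, against -0.0076 over all genes. No such share was computed for genes of similar exon length. The size of this lean varied with the libraries used. Without serum/-LIF replicate 2 the median was 0.0106 with 24 genes higher and 21 lower, and without Royalactin replicate 1 it was 0.000277 with 22 on either side. It was 0.34 when serum/-LIF replicate 1, or Royalactin replicate 2, was left out. Leaving out 1 library also unbalances the difference between replicates 1 and 2 described below, so these fits cannot test the lean. With all libraries kept, the median was 0.12 with the GC and length correction, with 31 genes higher. With scaling to the total without Rn45s it was 0.21, with 36 higher. The plot of fold changes by complex shows the estimates with their intervals.

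**Figure D1:**
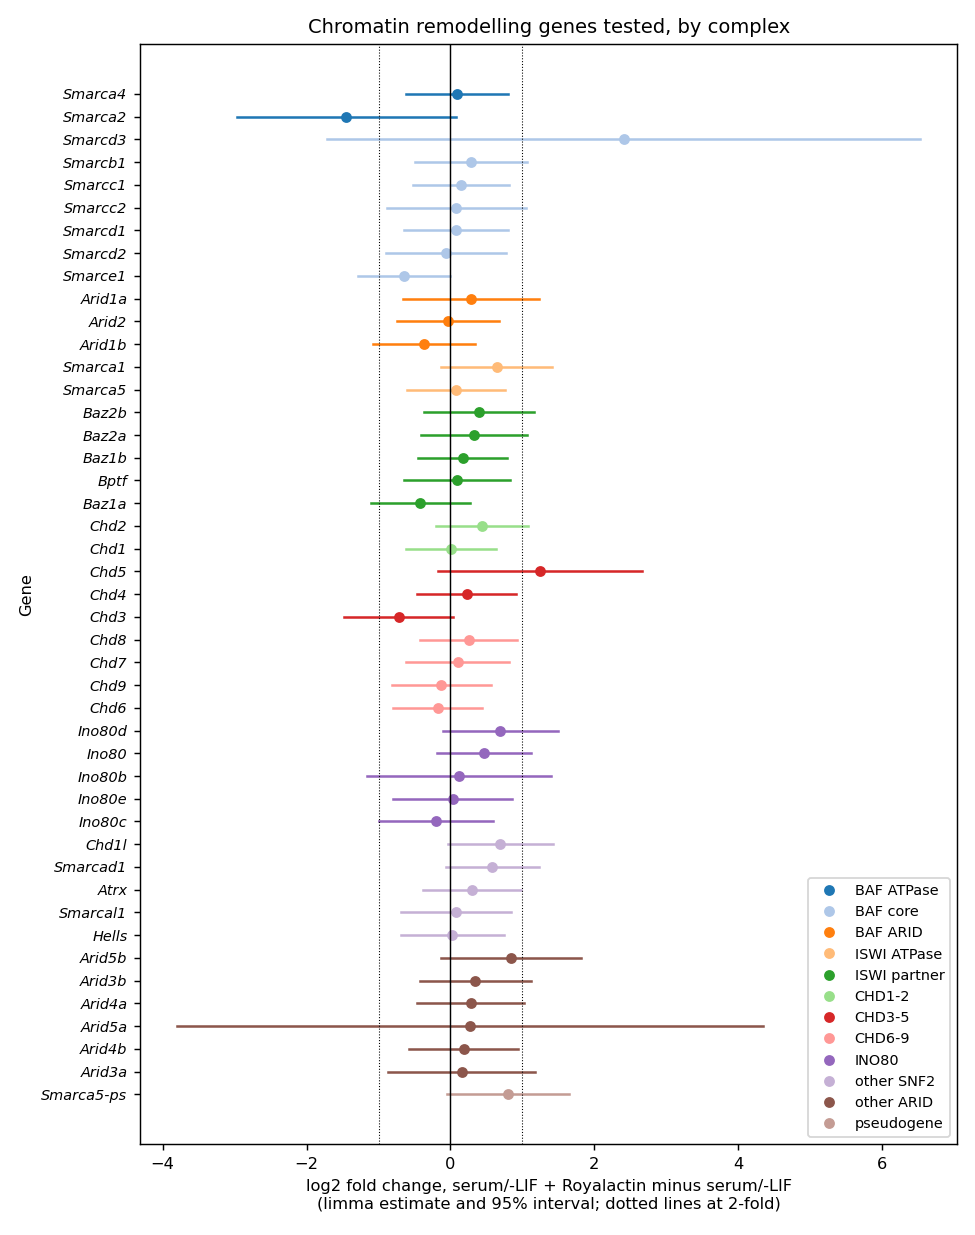
Log2 fold change of the 45 tested genes (x axis, serum/-LIF + Royalactin minus serum/-LIF; limma estimate as a point, 95% interval as a line), grouped and coloured by complex, with dotted lines at 2-fold. The estimates run from -1.45 (Smarca2) to 2.41 (Smarcd3), and every interval but that of Smarce1 reaches 0.

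The BAF complex was measured in 12 rows, and Smarce1 alone among them had an unadjusted p under 0.05 (9.34% of all genes). The ATPase Smarca4 was abundant in both cultures and the alternative ATPase Smarca2 was near the bottom of the range. Normalized counts of Smarca4 (chr9:21420613-21508674, mm9) were 2814 and 1722 in serum/-LIF and 2831 and 1954 with Royalactin. The groups overlapped and replicate 1 was the higher library in both cultures, with a log2 fold change of 0.10 ± 0.33 (SE; 95% interval -0.61 to 0.81). Smarca2 (chr19:26679650-26852811) had normalized counts of 89.6 and 83.8 in serum/-LIF and 25.1 and 38.5 with Royalactin, from 67, 81, 25 and 56 reads. Both Royalactin libraries were below both serum/-LIF libraries, the log2 fold change was -1.45 ± 0.71 (95% interval -2.97 to 0.08), and the limma p was 0.0608 unadjusted and 0.572 adjusted. Per kilobase of exon, the mean level was 350 for Smarca4 and 13.5 for Smarca2 in serum/-LIF, and 369 and 4.97 with Royalactin. The ratio of the ATPases per kilobase was 30.8 and 20.1 in serum/-LIF and 107 and 49.0 with Royalactin, higher in both Royalactin libraries.

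Smarce1, which encodes the HMG-box subunit of BAF, was the only member with an unadjusted p under 0.05. Its normalized counts (chr11:99070361-99092331) were 1977 and 2561 in serum/-LIF and 1354 and 1527 with Royalactin. Both Royalactin libraries were lower, with a log2 fold change of -0.65 ± 0.29 (95% interval -1.28 to -0.01), an unadjusted limma p of 0.0467 and an adjusted p of 0.523. With scaling to the total without Rn45s it was not below that limit, and Smarcad1, higher with Royalactin, was the only member that was. Smarcc1, the scaffold subunit found in the stem cell form of BAF, had normalized counts of 3765 and 3160, and 4714 and 3089, which overlapped. Its paralog Smarcc2 had 250 and 159, and 254 and 175, so Smarcc1 was 11.3 to 14.9 times as high per kilobase in each library, with no separation of the cultures. The core subunit Smarcb1 had 995 and 501, and 881 and 839, and Smarcd1 had 967 and 587, and 812 and 776. In both genes the serum/-LIF replicates lay further apart than the Royalactin replicates and on either side of them. Smarcd2 had normalized counts of 621 and 334, and 387 and 491, with the same nesting of the Royalactin values.

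Smarcd3, the third paralog of this subunit and known from muscle and neural BAF complexes, was close to the limit of detection. It had 7 and 0 reads in serum/-LIF and 17 and 22 with Royalactin, or normalized counts of 9.36 and 0, and 17.1 and 15.1. The log2 fold change of 2.41 ± 1.91 had an interval of -1.71 to 6.53 and an adjusted p of 0.755. It was 4.06 with a pseudocount of 0.1 and 1.32 with 5, and 0.72 without serum/-LIF replicate 2, the library at 0. The ARID subunits place the complex, ARID1A and ARID1B in canonical BAF and ARID2 in PBAF. Arid1a had normalized counts of 2503 and 999, and 2830 and 1311, and the replicates within a culture differed by more than 2-fold while the cultures overlapped. Arid1b had 642 and 555, and 487 and 440, with both Royalactin libraries lower and a log2 fold change of -0.37 ± 0.33 (adjusted p = 0.790). Arid2 had 2816 and 2003, and 3002 and 1788, which overlapped.

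Of 18 BAF and PBAF subunits outside the symbol rule, 16 were tested, none had an adjusted p under 0.05 (0.493% of all genes), 3 had an unadjusted p under 0.05 (9.34% of all genes), and the median log2 fold change was 0.11. Bcl11b, a zinc-finger subunit of differentiated cells, had normalized counts of 69.5 and 144 in serum/-LIF and 5.03 and 32.4 with Royalactin, a log2 fold change of -2.83 ± 0.96 with an unadjusted limma p of 0.0108 and an adjusted p of 0.324. Gltscr1l, a subunit of non-canonical BAF, had 321 and 190, and 589 and 613, a log2 fold change of 1.28 ± 0.38 with an unadjusted limma p of 0.00477 and an adjusted p of 0.224. The values of Gltscr1l lay within 1.04-fold of each other with Royalactin and 1.69-fold in serum/-LIF, so the gap between cultures exceeded both. Phf10, a PBAF subunit of progenitor cells, had 1365 and 1850, and 1021 and 879, a log2 fold change of -0.75 ± 0.31 with an unadjusted limma p of 0.0290 and an adjusted p of 0.451. The adjusted p of Gltscr1l, and those of Bcl11b and Phf10, were under 0.05 in some fits with a replicate block. Actl6b, the neuronal actin-like subunit, was at 0 in every library.

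ISWI was dominated by Smarca5, whose mean level per kilobase was the highest of all members in the Royalactin culture (980) and beside that of Hells in serum/-LIF (935 and 937). Normalized counts of Smarca5 (chr8:83222406-83263396) were 6296 and 8246 in serum/-LIF and 8276 and 6974 with Royalactin. These overlapped, with a log2 fold change of 0.08 ± 0.31 (95% interval -0.60 to 0.75). Smarca1 (SNF2L, chrX:45162547-45246151), its paralog and best known from neurons, had 269 and 322, and 441 and 479. Both Royalactin libraries were higher, with a log2 fold change of 0.64 ± 0.36 (adjusted p = 0.635). The ratio of Smarca5 to Smarca1 on the log2 scale was 4.55 and 4.68 in serum/-LIF and 4.23 and 3.86 with Royalactin, lower in both Royalactin libraries. The pseudogene Smarca5-ps had normalized counts of 195 and 259, and 468 and 330. Its Royalactin values were both higher (log2 fold change 0.80 ± 0.39, adjusted p = 0.574), and this row carries the uncertainty of the shared sequence printed above.

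The ISWI partners set the identity of the complex. Bptf is the histone-reading subunit of NURF, and it had normalized counts of 4346 and 3019, and 5130 and 2914, with replicate 1 higher in both cultures. Baz1b, the WICH subunit, had 2574 and 2304, and 2978 and 2521, which overlapped. Baz1a, the ACF subunit, had 1027 and 996, and 916 and 626, and both Royalactin libraries were lower (log2 fold change -0.42 ± 0.32, adjusted p = 0.742). The log2 ratio of Baz1b to Baz1a was 1.33 and 1.21 in serum/-LIF and 1.70 and 2.01 with Royalactin, higher in both Royalactin libraries. Baz2a (TIP5, of the nucleolar NoRC complex) had 2109 and 1359, and 2790 and 1618, and Baz2b had 518 and 575, and 961 and 540. Both overlapped between cultures. Of 4 further ISWI subunits outside the rule none was called with or without adjustment (0.493% and 9.34% of all genes). Pole3 had the largest estimate, with 140 and 362, and 114 and 207 (log2 fold change -0.55 ± 0.53).

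The CHD family was measured in 9 ATPases. In the limma fit without block or correction none had a p under 0.05, adjusted or not (0.493% and 9.34% of all genes). Without the variance trend Chd5 had an unadjusted p under 0.05. Chd1, linked to the open chromatin of stem cells, had normalized counts of 3937 and 3648 in serum/-LIF and 4218 and 3458 with Royalactin. The Royalactin values lay on either side of the serum/-LIF values, and the log2 fold change of 0.01 ± 0.29 had a 95% interval of -0.62 to 0.64, which leaves out changes of 2-fold. Chd2, its close relative, had 1192 and 978, and 1565 and 1368, higher in both Royalactin libraries with a log2 fold change of 0.44 ± 0.30 (adjusted p = 0.707). The log2 ratio of Chd1 to Chd2 was 1.72 and 1.90 in serum/-LIF and 1.43 and 1.34 with Royalactin, lower in both Royalactin libraries.

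The NuRD ATPases differed widely in level. Chd4 was the most abundant, with a mean level per kilobase of 658 in serum/-LIF and 756 with Royalactin, and normalized counts (chr6:125045999-125080609) of 6376 and 4181, and 6536 and 5581. The cultures overlapped (log2 fold change 0.23 ± 0.32). Chd3 (chr11:69156775-69182928) had 485 and 475 in serum/-LIF and 286 and 297 with Royalactin. The replicates of Chd3 nearly coincided in both cultures and both Royalactin libraries were lower, with a log2 fold change of -0.72 ± 0.35 (95% interval -1.48 to 0.04), an unadjusted limma p of 0.0614 and an adjusted p of 0.573. Chd5, a NuRD ATPase known from neurons, had normalized counts of 56.2 and 31.1 in serum/-LIF and 93.5 and 107 with Royalactin, from 42, 30, 93 and 156 reads. Chd5 was higher in both Royalactin libraries (log2 fold change 1.24 ± 0.66, 95% interval -0.17 to 2.66, adjusted p = 0.611). Relative to Chd4, the paralogs thus stood on opposite sides. The log2 ratio of Chd4 to Chd3 was 3.71 and 3.14 in serum/-LIF and 4.51 and 4.23 with Royalactin, and that of Chd4 to Chd5 was 6.80 and 7.03, and 6.11 and 5.69. Of the 12 NuRD subunits outside the rule, none was called with or without adjustment (0.493% and 9.34% of all genes). Their median log2 fold change was -0.05. Mta1 had the largest estimate, with 945 and 455, and 646 and 335 (log2 fold change -0.50 ± 0.42).

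Chd6 to Chd9, large ATPases linked to developmental genes and enhancers, lay between 1005 and 4632 normalized counts in all libraries. Chd6 had 2239 and 1916, and 1913 and 1750, with both Royalactin libraries just below both serum/-LIF libraries (log2 fold change -0.18 ± 0.29). Chd7 had 1636 and 1005, and 1634 and 1161, and Chd8 had 2312 and 1562, and 2574 and 1993. Chd9 had 4503 and 3549, and 4632 and 2897. In all 4 genes replicate 1 was above replicate 2 in both cultures, and for Chd7, Chd8 and Chd9 the cultures overlapped. The log2 fold changes of the 4 genes ran from -0.18 to 0.25.

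**Figure D2:**
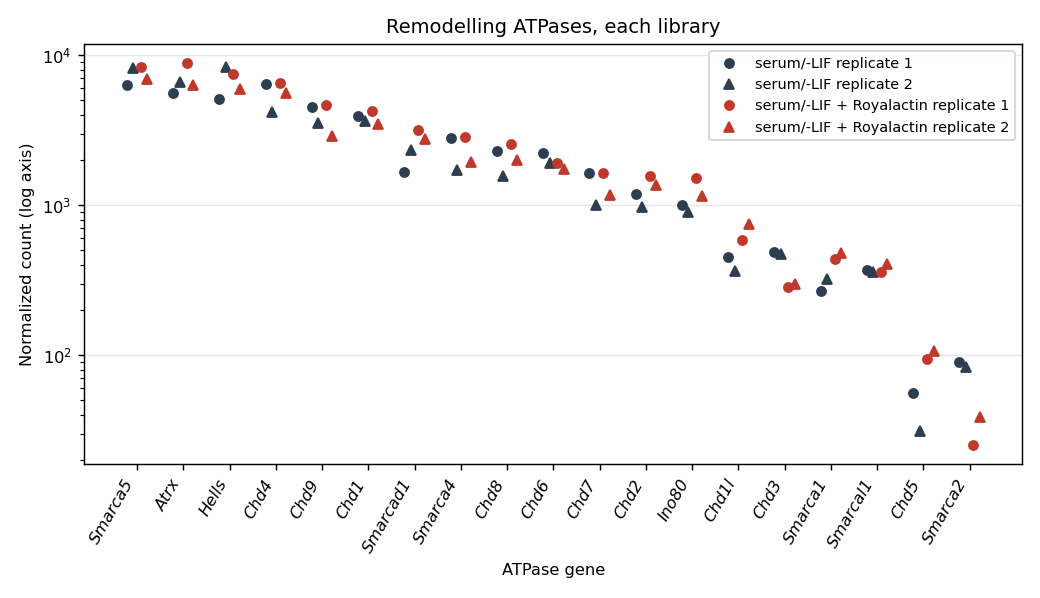
Normalized counts (y axis, log scale) of the 19 remodelling ATPases (x axis, ordered by mean) in each of the 4 libraries, with serum/-LIF in dark blue and serum/-LIF + Royalactin in red, circles for replicate 1 and triangles for replicate 2. Smarca5, Atrx, Hells and Chd4 lie at the top with overlapping cultures, and Chd5 and Smarca2 lie at the bottom on opposite sides.

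In the limma fit without block or correction, no INO80 subunit within the symbol rule had a p under 0.05, adjusted or not (0.493% and 9.34% of all genes). The ATPase Ino80 (chr2:119198778-119303423) had normalized counts of 1010 and 903 in serum/-LIF and 1518 and 1150 with Royalactin. Both Royalactin libraries were higher, with a log2 fold change of 0.47 ± 0.30 and an adjusted p of 0.685. Ino80d had 1075 and 570, and 1640 and 980, a log2 fold change of 0.69 ± 0.37 (adjusted p = 0.621). Its cultures overlapped, because serum/-LIF replicate 1 was above Royalactin replicate 2. Ino80b had 69.5 and 102, and 69.4 and 120, Ino80c had 338 and 453, and 305 and 379, and Ino80e had 274 and 282, and 313 and 257. These small subunits overlapped between cultures, and Ino80b and Ino80c were higher in replicate 2 of both. Of 24 subunits of INO80 and of the related SRCAP and TIP60-p400 complexes outside the rule, 23 were tested. None was called with adjustment (0.493% of all genes), and their median log2 fold change was 0.02. Nfrkb, an INO80 subunit, was the only gene of that list with an unadjusted p under 0.05 (9.34% of all genes). It had normalized counts of 266 and 211, and 545 and 377. Its log2 fold change was 0.93 ± 0.38, with an unadjusted limma p of 0.0300 and an adjusted p of 0.455.

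The remaining SNF2-family ATPases act alone or with a few partners, and all 5 had a higher mean on the log2 scale with Royalactin, as 49.4% of all genes did. Smarcad1 (chr6:64992661-65066044), which helps to restore silent chromatin behind replication forks, had normalized counts of 1672 and 2339 in serum/-LIF and 3156 and 2763 with Royalactin. Royalactin values were the higher in both libraries (log2 fold change 0.58 ± 0.30, 95% interval -0.07 to 1.22, adjusted p = 0.605). Chd1l (ALC1), which is recruited to DNA damage by poly(ADP-ribose), had 449 and 366, and 581 and 743. It too was higher in both Royalactin libraries (log2 fold change 0.69 ± 0.34, adjusted p = 0.572). Atrx, which deposits histone variant H3.3 with DAXX at repeats, had 5603 and 6671, and 8856 and 6361, and its cultures overlapped (log2 fold change 0.30 ± 0.32). Hells (LSH), needed for DNA methylation of repeats, had 5125 and 8371, and 7490 and 5945. The serum/-LIF replicates of Hells lay on either side of both Royalactin values, and the log2 fold change was 0.03 ± 0.33, while the mean of the counts was 6748 in serum/-LIF and 6717 with Royalactin. Smarcal1, which remodels stalled replication forks, had 368 and 357, and 356 and 408, with a log2 fold change of 0.07 ± 0.36. Of 4 known partners of HELLS and ATRX none was called with or without adjustment (0.493% and 9.34% of all genes). The largest estimate was that of Zbtb24, with 182 and 108, and 204 and 253 (log2 fold change 0.69 ± 0.46, adjusted p = 0.700). Daxx, the partner of ATRX, was next to it, with 412 and 398, and 553 and 752 (log2 fold change 0.67 ± 0.34, adjusted p = 0.591).

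The ARID proteins outside remodelling complexes were included by their symbols. Arid5b, a partner of the demethylase PHF2, had normalized counts of 369 and 190 in serum/-LIF and 693 and 327 with Royalactin (log2 fold change 0.84 ± 0.45, adjusted p = 0.621). The cultures overlapped and replicate 1 was about as far above replicate 2 as the cultures were apart. Arid4a, which binds the retinoblastoma protein, had 369 and 390, and 458 and 465, with replicates close and both Royalactin libraries higher (log2 fold change 0.28 ± 0.34). Its paralog Arid4b had 945 and 1194, and 1666 and 871. Arid3a and Arid3b, DNA-binding factors of early lineages, had 189 and 118, and 183 and 151, and 677 and 416, and 800 and 570. All 3 of these genes overlapped between cultures. The RNA-binding protein gene Arid5a had 1 and 27 reads in serum/-LIF and 2 and 46 with Royalactin, nearly all in the libraries numbered 2. Arid3c was under the filter, with 13 and 1 reads in serum/-LIF and 0 and 0 with Royalactin, and was not tested.

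Ratios of related genes within a library do not depend on how libraries were scaled. They are given without a test, because with 2 libraries against 2 the smallest two-sided exact permutation p is 0.333. Leaving aside the pair with Smarcd3, the widest shift was that of Smarca4 to Smarca2, where the mean log2 ratio was 4.65 in serum/-LIF and 6.19 with Royalactin, against a replicate SD of 0.64. For Chd4 to Chd3 the means were 3.42 and 4.37 (SD 0.32), for Chd4 to Chd5 6.91 and 5.90 (SD 0.24), and for Smarca5 to Smarca1 4.61 and 4.04 (SD 0.20). For Chd1 to Chd2 they were 1.81 and 1.38 (SD 0.10) and for Baz1b to Baz1a 1.27 and 1.85 (SD 0.17). In each of these pairs the abundant gene overlapped between cultures and the less abundant gene did not. The ratios of Chd7 to Chd8 (-0.57 and -0.72), Arid3a to Arid3b (-1.82 and -2.02) and Smarcd1 to Smarcd3 (7.87 and 5.54) also did not overlap between cultures, the last from the few Smarcd3 reads given above. The ratios of Smarcc1 to Smarcc2, Smarcd1 to Smarcd2, Arid1a to Arid1b, Chd6 to Chd9, Baz2a to Baz2b, Arid4a to Arid4b and Arid5b to Arid5a overlapped. Among all single genes, 38.6% did not overlap between cultures, and no such share was computed for ratios of other genes.

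**Figure D3:**
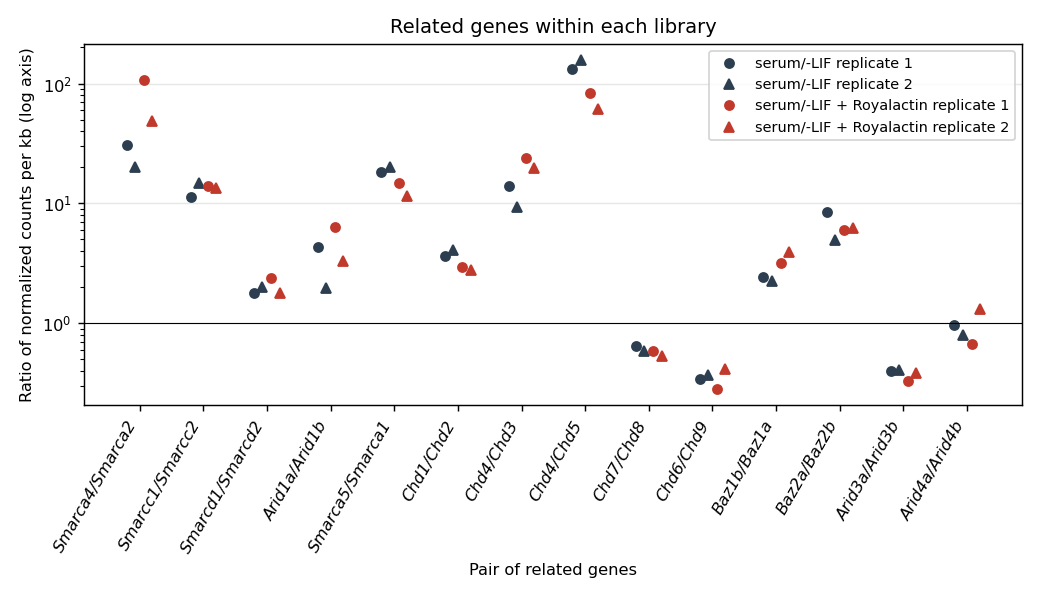
Ratio of the normalized counts per kilobase of exon of related genes (y axis, log scale) in each library for 14 pairs (x axis), with serum/-LIF in dark blue, serum/-LIF + Royalactin in red, circles for replicate 1 and triangles for replicate 2. Smarca4 to Smarca2 runs from 20.1 to 30.8 in serum/-LIF and from 49.0 to 107 with Royalactin, whereas Smarcc1 to Smarcc2 stays between 11.3 and 14.9 in all libraries.

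The remodelling genes shared a pattern between replicates that did not follow the cultures. Replicate 1 was above replicate 2 in both cultures for 25 of 45 genes (55.6%), against 28.1% of all genes, and the reverse held for 6 (13.3%, against 26.5%). The median log2 difference of replicate 1 from replicate 2 was 0.22 in serum/-LIF and 0.28 with Royalactin, against 0.03 and 0 over all genes. Arid1a was the clearest case, with log2 differences of 1.32 and 1.11. The remodelling genes are long, with a median exon length of 7343 bases against 3749 over all genes. Among the 1769 tested genes with exons at least that long, replicate 1 was above in both cultures for 49.7% and the median differences were 0.27 and 0.27. Across 12753 tested genes, the difference between replicates correlated with exon length at a Spearman rho of 0.232 in serum/-LIF and 0.304 with Royalactin, and with GC content at 0.333 and -0.18; across the 45 remodelling genes the values were 0.114 and 0.445 for length and 0.494 and -0.323 for GC content. These points share the same libraries, genes are not independent replicates, and the part of length, GC content or depth in the pattern was not tested further. The deviations of same-numbered libraries from their culture means correlated at a Pearson r of 0.619 across the remodelling genes and 0.085 across all genes. The value of 0.619 leans on Arid5a, a gene of few reads with log2 differences of -3.63 in serum/-LIF and -3.44 with Royalactin. The correlation without Arid5a was not computed.

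**Figure D4:**
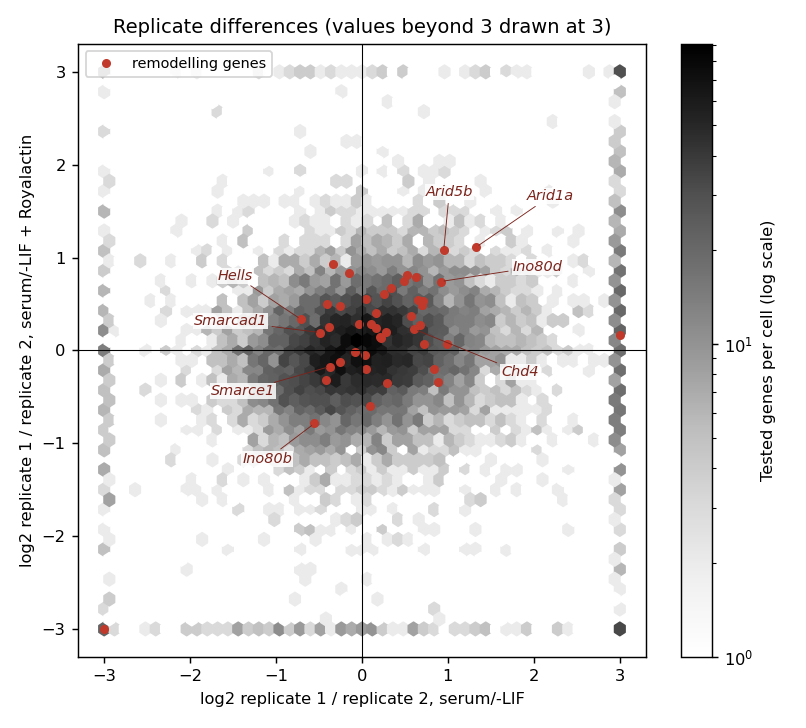
Log2 ratio of replicate 1 to replicate 2 in serum/-LIF (x axis) and in serum/-LIF + Royalactin (y axis) for the 45 tested remodelling genes (red points, 8 of them named) over the density of all 12993 tested genes (grey cells, log scale). Most red points lie in the upper right part, where replicate 1 is higher in both cultures.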

How the data were processed

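RNA-seq of J1 mESCs was used from 2 serum/-LIF and 2 serum/-LIF + Royalactin libraries, assigned by sample title to the columns of the table. RNA was depleted of ribosomal RNA and sequenced as single reads of 75 bases. Reads were aligned by the authors to mm9 with Tophat (up to 2 mismatches) and assigned to genes with HTSeq-count. The deposited values are DESeq-normalized counts, a signal in proportion to reads. How the counting treated strand, and which annotation it used, is not given in the sources used here. In every library 100% of values were whole multiples of a fixed step to within 0.01 reads, and dividing by it gave the reads. For Royalactin replicate 1 the step is so near 1 (1.01) that an automatic test could not decide, so the edgeR test on recovered reads (edgeR 4.0.16, quasi-likelihood) is an added alternative, chosen after seeing the data.

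The main test was limma 3.58.1 (lmFit, eBayes with trend, two-sided; R 4.3.3) applied to log2(normalized count + 1) of the 12993 genes with a mean of at least 10, with Benjamini-Hochberg adjustment over all of them. This scale can understate fold changes of low genes. Where a library is at 0 its estimate can also exceed that of edgeR, as for Smarcd3 (log2 fold change 2.41 in limma and 1.80 in edgeR). Deviations of same-numbered libraries correlated at 0.085 over all genes in only 2 pairs, so the labels' numbers were not taken as pairs. Across the remodelling genes they correlated at 0.619, a value that leans on Arid5a. Where same-numbered libraries share a difference, the fit without the block counts it as residual spread, which widens the intervals. Exon lengths, GC content and positions come from GENCODE on mm9 (98.2% of tested genes), near-identical sequence from 75-base tiles every 25 bases mapped with minimap2 2.31-r1302, and promoters from RefSeq (GRCm38.p6). To correct for GC content and length, a lowess curve (span 0.3) was subtracted per library. The limma fit was run on simulated counts, with and without the replicate block. The GC and length correction was not part of those simulations. Other alternatives were pseudocounts of 0.1 and 5, no filter or a mean of at least 50, upper-quartile scaling, scaling to the total without Rn45s, limma without the trend, the replicate block and each library left out.

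The members and lists were chosen with earlier results of these data known. Values in every library were given for every ATPase, the 6 largest estimates each way, any member with an unadjusted p under 0.05, paralog pairs whose ratios do not overlap, and members under the filter, and other members by name where their complex is described. Of partner genes, those with an unadjusted p under 0.05 and the largest estimate were named. Read numbers cover counting error only, since PCR copies are not separate molecules.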

Additional observations from a re-analysis of the deposited data

How the results depend on the processing

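No remodelling gene had an adjusted p under 0.05 under any alternative except the replicate block with the GC and length correction, which gave 3: Ino80d (adjusted p = 0.0384), Smarcad1 (0.0213) and Smarce1 (0.0180), beside 6.15% of all genes. The replicate block alone gave 0 of 45, beside 3.01% of all genes, and the GC and length correction alone gave 0, beside 1.95%; the block rests on numbers that were not shown to pair the libraries. Among partner genes, the replicate block gave Gltscr1l an adjusted p of 0.0251, and the block with the correction gave 0.0212 for Bcl11b, 0.0190 for Phf10 and 0.000832 for Gltscr1l, whose symbol had no length or GC value to correct by. The number with an unadjusted p under 0.05, 1 in the report, was 6 with the replicate block (12.4% of all genes), 2 without the trend, 8 with the GC and length correction (13.3%), 10 with both block and correction (17.4%), 0 in edgeR and 0 to 6 with a library left out. The number of genes whose cultures do not overlap, 15 in the report, was 24 to 37 with a library left out, where the lone sample of a culture has nothing to overlap with. The median log2 fold change ran from 0.000277 to 0.34 with a library left out, was 0.12 with the GC and length correction and 0.18 in edgeR. The causes were not tested.

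Of the log2 fold changes of 31 members (the ATPases, the largest estimates, pairs with separated ratios), 333 of 340 values under alternatives that kept all libraries had the same direction and side of the threshold, 4 reversed and 3 moved past the threshold, those of the replicate block with the GC and length correction above. The reversals were Smarca4 (-0.022) and Smarcal1 (-0.032) with the GC and length correction, the same with the block. Outside those 31, Ino80e (-0.080) and Smarcc2 (-0.040) also reversed with this correction. With each library left out, where the lone sample of a culture is assumed to vary like the rest, 103 of 122 values kept their direction and 19, in 13 genes, reversed. Over these fits the log2 fold change ran from -0.18 to 0.49 for Arid3a, -0.0034 to 0.70 for Arid3b, -0.13 to 0.15 for Chd1, -0.078 to 0.53 for Chd4, -0.25 to 0.45 for Chd7, -0.030 to 0.54 for Chd8, -0.46 to 0.21 for Chd9, -0.33 to 0.38 for Hells, -0.41 to 0.0070 for Ino80c, -0.26 to 0.45 for Smarca4, -0.12 to 0.27 for Smarca5, -0.025 to 0.17 for Smarcal1 and -0.28 to 0.44 for Smarcd1. Depth limits Smarcd3, Arid5a, Arid3c, Chd5 and Smarca2, which rest on few reads.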
